A study of Mus musculus with 2 samples.

Results

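Mouse chromosome 19 held 334 of the 7680 peaks that the study's authors called for the transcription factor Nr4a2 (Nurr1) in BV2, a microglial cell line of the mouse made to grow without limit. The peaks were taken as every entry of the deposited list on that chromosome. The chromosome was chosen by its count of peaks per Mb in this same list, together with its richness in genes, so its density is described here and not tested. The data were 1 library of DNA precipitated with an anti-Nr4a2 antibody and 1 input library of unprecipitated DNA from the same cell line, both prepared with an enzymatic chromatin kit. H2O2 appears in the library names of the file header, but no label mentions a treatment, and whether the cells were exposed to it is not given in the sources used here. With duplicates removed, 20365794 tags remained for the ChIP and 22520884 for the input. There were no replicates, so no value below has a measure of variation between cultures, and every interval covers counting error only.

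Nr4a2 belongs to the NR4A orphan nuclear receptors, which act without a known natural ligand and are themselves induced by stress and growth signals. As a single molecule the receptor binds an extended hormone response element, the NBRE, and it also pairs with the retinoid X receptor. It is known for maintaining midbrain dopamine neurons and for restraining inflammatory gene expression in microglia and astrocytes. Chromosome 19 is the shortest mouse autosome.

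The peaks of chromosome 19 that lie nearest to the starts of coding genes are shown first by the sequence in front of those starts. Only some of these peaks reach into that sequence. In 4 coding genes a summit lay within 200 bp of a RefSeq transcript start. Vps13a encodes a lipid transfer protein, Eif3a the largest subunit of a translation initiation factor, Dusp5 a phosphatase that switches off ERK, and Vps37c a subunit of the ESCRT-I sorting complex. Given 5′ to 3′ on the gene's own strand are the 250 bases before each start (RefSeq, GRCm38.p6, which mm10 also names), at chr19:16780934-16781183 on the minus strand for Vps13a, chr19:60790694-60790943 on the minus strand for Eif3a, chr19:53528895-53529144 on the plus strand for Dusp5 and chr19:10688485-10688734 on the plus strand for Vps37c. Capitals mark the word GGGCGG, bound by Sp1-like factors.
Vps13a: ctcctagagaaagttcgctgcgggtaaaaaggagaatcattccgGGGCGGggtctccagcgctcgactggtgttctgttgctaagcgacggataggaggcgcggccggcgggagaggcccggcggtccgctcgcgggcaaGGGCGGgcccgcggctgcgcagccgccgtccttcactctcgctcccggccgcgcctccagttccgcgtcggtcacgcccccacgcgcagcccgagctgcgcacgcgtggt
Eif3a: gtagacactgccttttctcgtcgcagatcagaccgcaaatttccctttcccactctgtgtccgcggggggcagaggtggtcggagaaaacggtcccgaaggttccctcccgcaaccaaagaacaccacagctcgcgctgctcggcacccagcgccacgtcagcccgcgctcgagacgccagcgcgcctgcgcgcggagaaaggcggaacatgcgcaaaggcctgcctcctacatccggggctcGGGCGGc
Dusp5: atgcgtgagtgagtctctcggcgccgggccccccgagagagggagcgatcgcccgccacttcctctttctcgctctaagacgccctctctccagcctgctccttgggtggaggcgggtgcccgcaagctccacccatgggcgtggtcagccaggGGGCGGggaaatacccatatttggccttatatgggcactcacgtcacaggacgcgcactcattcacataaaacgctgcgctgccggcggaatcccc
Vps37c: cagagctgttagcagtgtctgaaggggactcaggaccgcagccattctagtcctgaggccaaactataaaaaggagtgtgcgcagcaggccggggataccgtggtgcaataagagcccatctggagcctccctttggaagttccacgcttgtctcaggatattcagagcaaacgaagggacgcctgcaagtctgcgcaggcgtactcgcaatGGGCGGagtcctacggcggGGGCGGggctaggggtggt

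In Vps13a 201 of these 250 bases lay inside the called peak, and in Eif3a 129 did. The peaks at Dusp5 and Vps37c began downstream of the start and covered none of the bases shown. Each gene had GGGCGG at least once, and Vps13a and Vps37c had it at 2 places. The words AAAGGTCA (the NBRE), AGGTCA (its core, held by every NBRE), TGACGTCA (the cyclic AMP response element), TGANTCA (the AP-1 element) and CCGGAAGT (an ETS element) were searched on both strands and were not found in these 4 windows.

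Widening the search to summits within 1000 bp of a transcript start gave 17 peaks at 18 coding genes, and by gene the summit was downstream of the start in 10 and upstream in 8. Among the windows before these 18 starts, only those of Vps13a and Eif3a were reached by the called peak. The other windows hold no bases of their peak, so the counts describe promoters near peaks and not the peaks. Of these 18 windows, 15 held GGGCGG, beside 32.7% of all 32851 promoter windows and 46.4% of the 729 windows of coding genes on chromosome 19. The windows of the 18 genes had 63.0% G and C on average, beside 55.8% for coding genes of the chromosome, and the part of base composition in this count was not tested. AGGTCA was present in 2 of the 18, in Cpt1a and Cntf, beside 11.5% of coding windows on the chromosome. None of the 18 held the full NBRE, which 1.34% of all windows hold. TGANTCA was found in 1, Cntf, beside 5.90% of coding windows on the chromosome. None held TGACGTCA or CCGGAAGT, which 1.55% and 2.88% of all windows hold. Such matches describe the letters in these windows and not the binding of any factor.

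**Figure D1:**
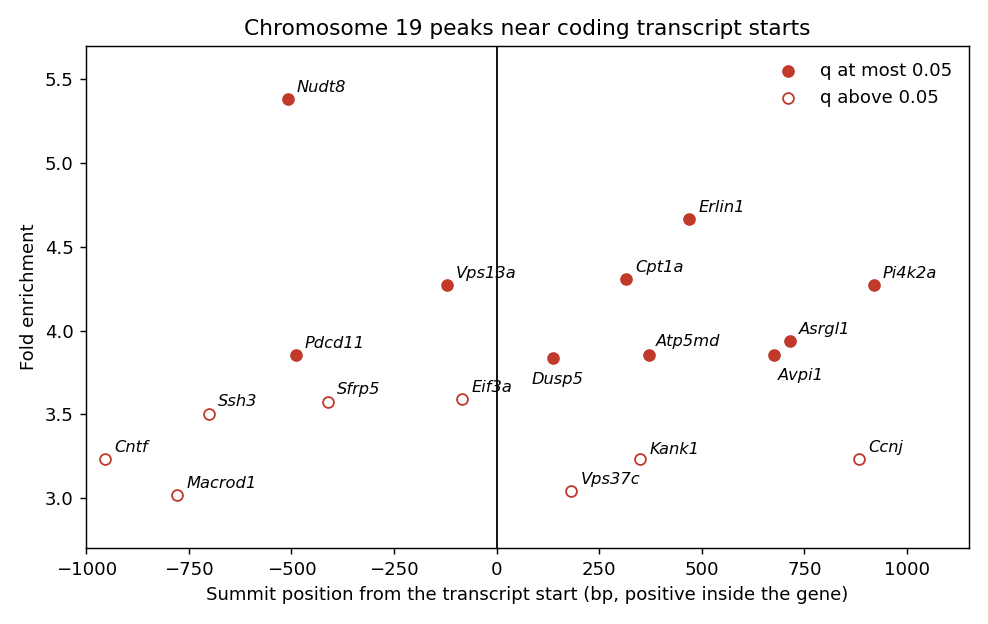
Summits within 1000 bp of a coding transcript start on chromosome 19, plotted by signed distance from the start (bp, positive inside the gene) and by fold enrichment; filled points have a q of at most 0.05 and open points a q above it. Nudt8 is highest at 5.38-fold, and the 4 summits within 200 bp of a start range from 3.04-fold at Vps37c to 4.27-fold at Vps13a.

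At the peak nearest to a listed RefSeq transcript start, that of Eif3a, the summit had 9 tags and 3.59-fold enrichment and lay 84 bp upstream. It missed a q of 0.05, at a −log10 q of 1.08. The peak at Vps13a had 11 tags, 4.27-fold enrichment and a −log10 q of 1.76. Its summit lay 121 bp upstream of the transcript start but 17 bp inside the start of the gene record. At Dusp5 the summit lay 138 bp downstream, with 10 tags, 3.83-fold enrichment and a −log10 q of 1.39. The peak at Vps37c was weak, with 8 tags, 3.04-fold enrichment and a −log10 q of 0.76. Here fold enrichment is the authors' ratio of ChIP tags to the local background at the summit, and q is their p-value adjusted over the genome.

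By density chromosome 19 ranked behind only chromosomes 15 and 12 among the 20 chromosomes other than Y. It held 5.74 peaks per Mb (95% interval 5.14 to 6.39) over the 58.2 Mb between its first and last annotated gene. Chromosomes 15 and 12 had 6.38 and 5.76 per Mb, and the next below chromosome 19 was chromosome 1 with 4.46. By coding genes, chromosome 19 had 12.1 per Mb, after chromosome 7 with 14.0 and chromosome 11 with 13.2. Those gene-rich chromosomes had 1.05 and 3.26 peaks per Mb. Chromosomes 15 and 12 had 7.47 and 5.66 coding genes per Mb.

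**Figure D2:**
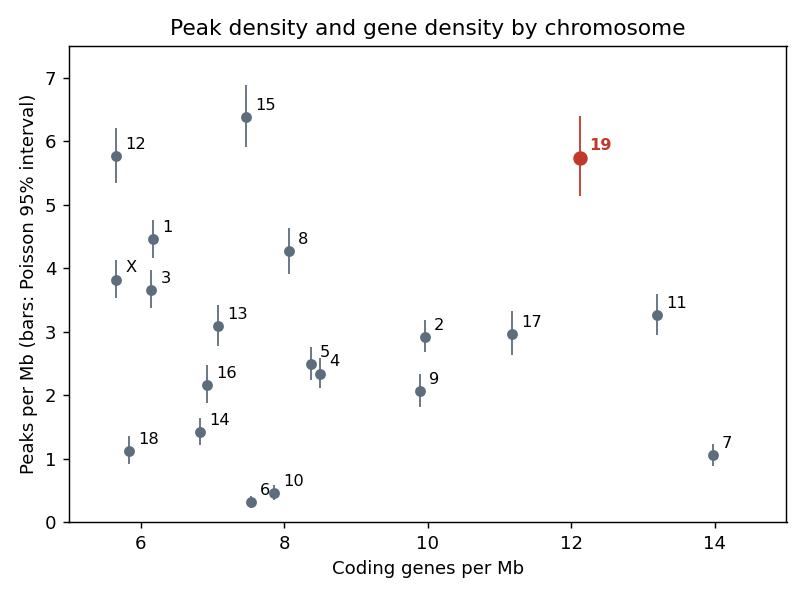
Peaks per Mb (vertical axis, bars are exact Poisson 95% intervals) against coding genes per Mb (horizontal axis) for chromosomes 1 to 19 and X. Chromosome 19, at 5.74 peaks and 12.1 genes per Mb, is the point high on both axes, while chromosomes 15 and 12 are dense in peaks with fewer genes.

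Along the chromosome the peaks did not follow the genes closely. The 10 Mb from 5 to 15 Mb held 291 of the 705 coding genes (41.3%) but 50 peaks (14.97%) on 17.2% of the length, or 5.0 per Mb (95% interval 3.71 to 6.59). This stretch, picked after its values were seen, includes the genes of the NF-κB subunit Rela, the paraspeckle RNA Neat1 and all 63 olfactory receptors listed on the chromosome. The bin just before it, from 4 to 5 Mb, held 9 peaks beside 49 coding genes. The remaining 48.2 Mb had 5.90 peaks per Mb (5.23 to 6.62). From 15 to 30 Mb, where only 73 coding genes lie, there were 87 peaks, or 5.80 per Mb (4.65 to 7.15).

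In bins of 5 Mb the count was 22 peaks in the part of the first bin that holds genes, from 3.06 Mb on, and 33 from 5 to 10 Mb. The bin from 10 to 15 Mb was the sparsest complete one, with 17 peaks beside 134 coding genes. It was followed by 29 peaks from 15 to 20 Mb, 32 from 20 to 25 Mb and 26 from 25 to 30 Mb, beside 16, 26 and 31 coding genes. Further on, 34, 27 and 36 peaks fell in the bins that start at 30, 35 and 40 Mb, and 22, 25 and 26 in those that start at 45, 50 and 55 Mb. The last, incomplete bin held 5. Per Mb, these bins ran from 3.40 (1.98 to 5.44) at 10 to 15 Mb to 11.4 (7.12 to 17.2) in the 1.94 Mb of the first bin. The intervals of all neighbouring bins overlap.

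Each of the 59 bins of 1 Mb contained at least 1 peak, with a median of 5. Leaving out Y, the emptiest other chromosome by this measure was chromosome 6, with 115 of 150 bins empty. The fullest was chromosome 15, with 6 of 104 empty. The fullest bin, from 5 to 6 Mb, held 15 peaks and 51 coding genes. There 3 peaks were between genes, and the genes with a peak inside or at an end were Sf3b2, a spliceosome subunit gene, Rab1b, a vesicle traffic GTPase gene, Pacs1, Ctsw, Cfl1, Frmd8 and Pola2, among others. The bins from 3 and 42 Mb held 13 peaks each, that from 53 Mb held 12, and those from 23 and 32 Mb held 11 each. From 53 to 54 Mb, 2 of the 12 peaks were between genes, and the genes with a peak inside or at an end included Add3, the long noncoding RNA gene Mirt1, Dusp5 and Rbm20. At the other end, 1 peak was found from 13 to 14 Mb, where 33 coding genes lie, 1 from 43 to 44 Mb beside 11, and 1 from 49 to 50 Mb, where no coding gene lies. The last, incomplete bin of 1 Mb, with 3 coding genes, also held 1. The longest gap, 1179 kb between summits at 42812399 and 43991626, enclosed 10 coding genes.

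Ranks of peaks and coding genes per 1 Mb bin correlated at 0.271 over the 59 bins of chromosome 19. Neighbouring bins are not independent and all come from the same library, so the value is a description. The other 19 chromosomes had 0.169 to 0.549, with a median of 0.371. In 5 Mb bins the correlation on chromosome 19 was 0.189 over 13 bins, below those of the other 19 chromosomes (0.239 to 0.689). Bins were ranked by their counts and not per Mb, so the incomplete first bin, at 11.4 peaks per Mb, entered with 22 peaks. Without the incomplete last bin, and with the first kept, the correlation on chromosome 19 was -0.0334. Leaving out the first and the last bin of every chromosome gave 0.0799 on chromosome 19 and 0.268 to 0.630 on the others. Without the stretch from 5 to 15 Mb the 1 Mb correlation was 0.462 over 49 bins. Bins with up to 5 coding genes had 4.29 peaks per Mb (3.45 to 5.26), those with 6 to 15 had 6.50 (5.43 to 7.72) and those with 16 or more had 6.67 (5.50 to 8.02).

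**Figure D3:**
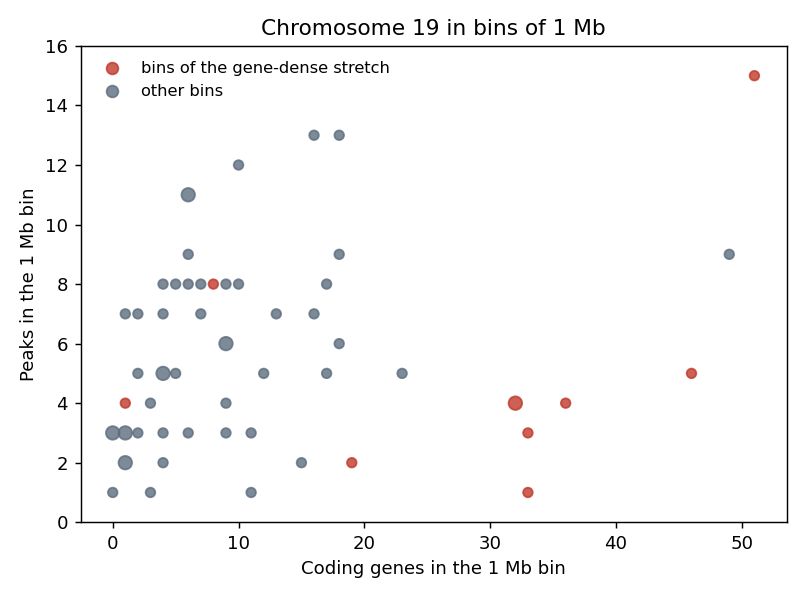
Peaks against coding genes in the 59 bins of 1 Mb on chromosome 19, with the 10 bins from 5 to 15 Mb in red and larger points for bins with the same values. Of the red bins, only that with 51 genes has more than 8 peaks, at 15, while bins with 6 genes reach 11.

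A summit was counted at a gene end when the nearest start or finish of a gene record was no more than 1000 bp away. By this measure 33 of the 334 summits (9.88%, 95% interval 6.90 to 13.6) were at gene ends, beside a background of 8.15% over all placed peaks. Gene ends in this sense cover 6.56% of the bases of chromosome 19 and 4.87% of those of the other chromosomes. The ratio of summits to bases was therefore 1.51 (1.05 to 2.07) on chromosome 19 and 1.66 (1.53 to 1.79) elsewhere, with overlapping intervals. On chromosomes 15 and 12 the gene-end shares were 6.49% and 6.51%, with ratios of 1.35 (0.982 to 1.79) and 1.48 (1.09 to 1.96).

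Another 175 summits (52.4%, 46.9 to 57.9) lay inside a gene and not at an end, beside 47.2% over all placed peaks and 50.6% of the bases of the chromosome. The remaining 126 (37.7%, 32.5 to 43.2) were between genes, beside 42.9% of the bases. Beyond 100 kb from any gene end there were 26 summits (7.78%, 5.15 to 11.2), while 14.0% of the bases lie that far away. Exons and introns were not separated. In the stretch from 5 to 15 Mb, 9 of 50 summits (18.0%, 8.58 to 31.4) were at gene ends, against 24 of 284 (8.45%, 5.49 to 12.3) in the rest of the chromosome. Gene ends cover 11.8% of the bases of the stretch and 5.48% of the rest, so the ratio of summits to bases was close in both, at 1.53 (0.728 to 2.67) in the stretch and 1.54 (1.002 to 2.25) in the rest.

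**Figure D4:**
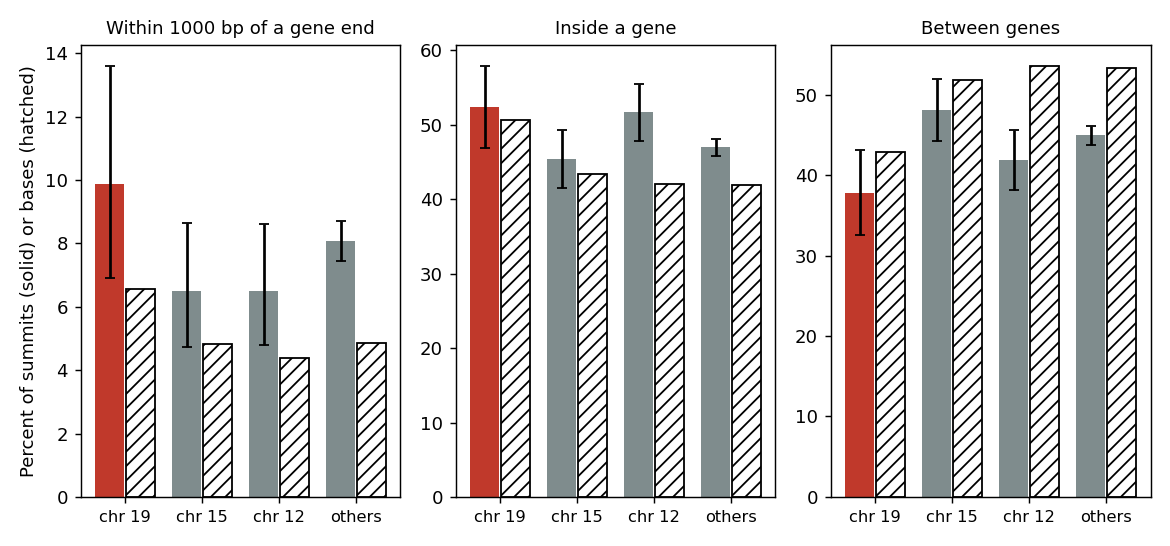
Percent of peak summits (solid bars, with exact binomial 95% intervals) and percent of bases (hatched bars) within 1000 bp of a gene end, inside a gene and between genes, for chromosomes 19, 15 and 12 and for all chromosomes other than 19. On chromosome 19, 9.88% of summits and 6.56% of bases were at gene ends.

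Of the 33 gene-end peaks, 28 were at a coding gene and 5 at noncoding records alone, and 6 were at the ends of 2 coding genes at once. They touched 33 of 705 coding genes (4.68%, 3.24 to 6.51), beside a background of 2.36% over all coding genes. More peaks per Mb raise such a share by construction, and the chromosome was chosen for its density. By strand, 16 of the 33 genes had the peak at their start and 13 at their far end. Nudt8 had both, and 5 genes had no strand in the table used. A q of at most 0.05 was reached by 18 of the 33.

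The strongest gene-end peak, at 3999944 to 4000145, was also the highest peak of the chromosome by fold. It had 14 ChIP tags over a background of 1.79, which gave 5.38-fold at a −log10 q of 3.27. The summit lay 509 bp before the start of Nudt8, a nudix hydrolase gene, and 559 bp beyond the far end of Tbx10, a T-box factor gene. Weaker peaks lay on both sides, of 8 tags and 3.23-fold inside Tbx10, 1652 bp away, and of 10 tags and 2.96-fold at the far end of Nudt8, 1960 bp away. Both of these had a −log10 q of 0.76.

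Several of the next strongest were at far ends. A peak of 13 tags and 4.98-fold lay 368 bp beyond the far end of Actr1a, which encodes a subunit of the dynein cofactor dynactin. Another of 9 tags and 3.59-fold lay 1075 bp from it, 116 bp beyond the far end of the transporter family gene Mfsd13a. Bscl2, which encodes the lipid droplet protein seipin, had a peak of 13 tags and 4.93-fold 822 bp beyond its far end. The peak at Mbl2, a mannose-binding lectin gene, had 12 tags and 4.51-fold and lay 173 bp inside its far end. Cfl1, which encodes the actin-severing protein cofilin, had 13 tags and 4.28-fold 303 bp inside its far end.

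At starts, Erlin1, which encodes a lipid raft protein of the endoplasmic reticulum, followed Nudt8 with 12 tags and 4.67-fold. Its summit lay 470 bp downstream of the nearest transcript start. A peak of 10 tags and 3.85-fold was near the starts of both Atp5md, an ATP synthase subunit gene, and Pdcd11, a ribosomal RNA maturation gene. It was 371 bp inside Atp5md and 459 bp before the Pdcd11 record, and these genes run in opposite directions. Avpi1 (3.85-fold), Asrgl1 (3.94-fold) and Mirt1 (4.31-fold) also had a peak at their start, with q at most 0.05. Cpt1a, which encodes the carnitine palmitoyltransferase of mitochondrial fatty acid import, had a peak of 15 tags and 4.31-fold. That summit was 316 bp downstream of a RefSeq transcript start but 1.29 kb from the end of the gene record, so it was not counted among the 33. For Ccnj and Pi4k2a the same held, at 883 and 919 bp.

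Coro1b and Ptprcap, an actin-binding coronin gene and the gene of a CD45-associated protein, shared a peak of 11 tags and 3.92-fold. Other coding genes with a gene-end peak of q at most 0.05 were Olfr1419 (3.95-fold), Gal3st3 (3.92-fold) and Pip5k1b (3.70-fold). Those at Sfrp5, Ssh3, Kank1, Cntf, Ptgdr2, Trpm3, Dmrt2 and Macrod1 had a q above 0.05.

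Peak heights on chromosome 19 were close to those of the rest of the list. The median peak had 10 tags, a fold of 3.70 (95% interval of the median 3.59 to 3.89) and a width of 194.5 bp, against 10 tags, 3.59 (3.59 to 3.59) and 189.5 bp on the other chromosomes. The mean folds were 3.756 and 3.755. Of the 334 peaks, 172 (51.5%, 46.0 to 57.0) had a q of at most 0.05, beside 50.6% of the whole list. A q of at most 0.01 was reached by 52 (15.6%, 11.9 to 19.9), beside 15.4%, and a fold of 5 or more by 13 (3.89%, 2.09 to 6.56), beside 3.79%. Tags at the summit ran from 7 to 15, with 1 peak at 24, and 84 peaks had exactly 10. Since the threshold starts at 7 tags, 1 tag more or less moves a peak past many others. In 155 peaks (46.4%) the background was, within 0.002 tags, the genome-wide 1.786, against 49.6% elsewhere.

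**Figure D5:**
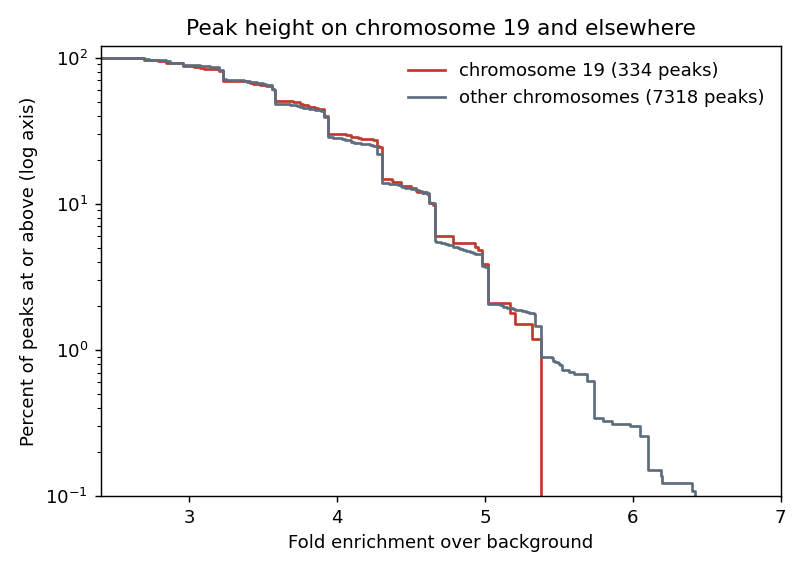
Percent of peaks (log axis) at or above each fold enrichment for the 334 peaks of chromosome 19 and the 7318 of the other chromosomes. The curves lie close together up to the highest peak of chromosome 19 at 5.38-fold, and the other chromosomes reach further, to 10.5-fold outside the plotted range.

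By position, the median fold was 3.83 for the 33 gene-end peaks, 3.59 for the 175 inside genes and 3.67 for the 126 between genes. Along the chromosome, the median fold of the 5 Mb bins stayed between 3.57 and 3.95.

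At the maximum of 5.38-fold there were 4 peaks, each with 14 tags over the genome-wide background. Besides that at Nudt8, they lay 13.8 kb inside an end of Smarca2, which encodes the chromatin remodelling ATPase BRM, and in the noncoding genes 9830166K06Rik and Gm35438, 4.16 kb from Chrm1 and 88.4 kb from Vldlr. A peak of 15 tags and 5.33-fold between genes was 12.4 kb from Slc35g1. Its −log10 q of 3.46 was the highest of the chromosome. Kmt5b, which encodes a histone H4 methyltransferase, held a peak of 5.20-fold, and Rbm4, an RNA-binding protein gene that overlaps Gm21992, a peak of 5.18-fold. Another 6 peaks had 5.02-fold with 13 tags, among them those at 40.4 kb from Ighmbp2 and 2.63 kb from Olfr1480.

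The peak with most tags, 24 at 39263978 to 39264211, had a background of 6.33 tags and so a fold of only 3.41. It lies 23.0 kb from Cyp2c29, within a tandem family of cytochrome P450 genes, and how reads were shared among its copies was not tested. The background there was the highest of the 334 peaks. Other peaks of 15 tags lay 36.8 kb from Tlx1 (4.54-fold) and 14.8 kb from Sh3pxd2a (3.47-fold). The widest peak, 652 bp at 5278683 to 5279334, was inside Sf3b2 and was the widest of all placed peaks. It had 14 tags and 4.39-fold enrichment. Next by width were peaks of 513 bp inside Sh3pxd2a (12 tags, 4.67-fold) and 479 bp at the start of Dusp5.

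In all, 116 coding genes (16.5%, 13.8 to 19.4) had a summit inside them, beside a background of 11.6% of all coding genes. This share too rises with peak density by construction. The 116 genes had a median length of 68.0 kb, against 13.0 kb for the 589 without. Of the 67 genes of 100 kb or longer, 44 had a peak inside, against 72 of the 638 shorter ones. Per length they were alike, with 5.82 peaks per Mb in long genes and 5.94 in short ones, summed over genes. The genes with most peaks were thus long ones.

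Trpm6, a magnesium channel gene of 162 kb, and Pik3ap1, which encodes the adaptor BCAP that links Toll-like and B cell receptors to PI3 kinase, held 5 peaks each. The folds in Pik3ap1, which spans 113 kb, were 3.24, 3.50, 2.85, 4.67 and 3.59 in genome order, with 9, 12, 7, 12 and 9 tags. Of these, 2 had a q of at most 0.05. In Trpm6 they were 3.58, 2.69, 4.67, 3.20 and 2.79 with 10, 9, 12, 8 and 8 tags, and 1 passed that limit. Prkg1, a cyclic GMP kinase gene of 1201 kb, held 4 peaks, at 0.333 per 100 kb against 4.44 in Pik3ap1. Another 3 peaks each were found in Sh3pxd2a, Tmc1, Sgms1, Ppp6r3, Trpm3, Tcf7l2, Entpd1 and Crtac1, which brings the coding genes with 3 or more to 11. All 3 in Sh3pxd2a, which encodes a podosome scaffold, had a q of at most 0.05, with folds of 3.70, 4.31 and 4.67. Tcf7l2 encodes a Wnt pathway transcription factor and Entpd1 the ectonucleotidase CD39 of microglia and lymphocytes.

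Some peaks came in close pairs. The median gap between neighbouring summits was 107.7 kb, and 8 of 333 gaps were 2000 bp or less. The closest pair, 339 bp apart, lay in Ctsw, a protease gene of cytotoxic lymphocytes, with 11 and 12 tags and folds of 4.16 and 4.67. Add3, an adducin gene, held a pair 581 bp apart (3.43- and 4.14-fold), and Fam189a2 a pair 760 bp apart (4.31- and 3.59-fold). Klf9, which encodes a Krüppel-like factor induced by glucocorticoid and by oxidative stress, had peaks of 4.31-fold and 3.23-fold 1310 bp apart. The second of these lay 769 bp from the microRNA gene Mir1192. Mirt1 had 4 peaks in all, 3 inside and 1 at its start, with folds of 2.69, 2.85, 4.31 and 4.31.

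Coding genes of the chromosome were also read in 16 short lists by role, which do not hold every gene of a role. They are set beside 4.68% of all coding genes of the chromosome with a gene-end peak and 16.5% with a peak inside. Counts of genes with either kind are set beside the whole chromosome, where 574 of 705 coding genes had neither. Median gene length ran from 0.945 to 85.3 kb over the lists, and longer genes more often held a peak. The part of length in the list counts was not tested. In the inflammation and NF-κB list no gene had a gene-end peak, and 2 of 18 had a peak inside. These were Btrc, a ubiquitin ligase gene that acts on the NF-κB inhibitor (4.67-fold), and Il33, an alarmin gene (3.81-fold). The nearest summits were 16.5 kb from Rela, 43.6 kb from Nfkb2 and 4.12 kb from Chuk, the last being the peak at Erlin1. Among myeloid and phagocyte genes, Coro1b had a gene-end peak and Pik3ap1, Ms4a6c (3.95-fold) and Entpd1 (3.92-fold) a peak inside, 4 of 16. For lymphocytes it was Ptprcap and Ctsw, 2 of 8.

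None of the listed neuron and dopamine genes had a gene-end peak, and 5 of 19 had a peak inside. Of these, the serotonin receptor gene Htr7 had peaks of 5.02-fold and 3.95-fold, Sorcs3 reached 4.31-fold, Sorcs1 3.92-fold and Atrnl1 3.56-fold. Nrxn2, the other, had 1 of 2.79-fold. The gene of Pitx3, a partner of Nr4a2 in dopamine neurons, was 93.2 kb from the nearest summit, and that of the vesicular monoamine transporter, Slc18a2, 88.1 kb. Of 6 muscle genes, Rbm20 had a peak inside (4.31-fold).

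None of the listed nuclear receptor and chromatin cofactor genes had a gene-end peak, and 6 of 18 had a peak inside. They were Smarca2 (5.38-fold), Ldb1 (4.44-fold), Pcgf5 (4.27-fold), Tcf7l2 (4.25-fold), Rfx3 and Kdm2a. The list's median gene length was 85.3 kb, the longest of the 16, and the part of length in this count was not tested. The orphan receptor gene Esrra was 28.7 kb and Rorb 96.7 kb from the nearest summit. Among 6 immediate early and AP-1 genes, Dusp5 had a gene-end peak and Klf9 peaks inside, while the nearest summits were 4.41 kb from Npas4 and 10.9 kb from Fosl1.

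None of the 17 listed redox and iron genes had a peak at an end or inside. The same held for 574 of all 705 coding genes of the chromosome. Counting error alone allows a share with a peak of up to 19.5% in this list (exact 95% interval). The ferritin heavy chain gene Fth1 was 16.1 kb, Prdx5 40.6 kb, Slc3a2 47.0 kb and Prdx3 73.3 kb from the nearest summit. Of 21 RNA processing and ribosome biogenesis genes, Pdcd11 and Eif3a had a gene-end peak and Rbm4, Sf3b2 and Rrp12 (3.38-fold) a peak inside. Autophagy, lysosome and vesicle traffic genes had 2 of 18 at an end, Vps13a and Vps37c, whose summits also lay inside the gene. Another 4 had a peak inside alone, namely Vti1a (4.53-fold), Gbf1 (4.07-fold), Rab1b (3.56-fold) and Snx15 (3.07-fold). With both kinds, 6 of 18 had a peak inside (33.3%, 13.3 to 59.0). In the lipid list Pip5k1b had a gene-end peak, and among the genes with a peak inside alone were Sgms1 (4.63-fold), Asah2 (4.31-fold), Pi4k2a (4.27-fold) and Plce1 (3.56-fold).

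Among heat shock and protein folding genes, Erlin1 had a gene-end peak and Hspa12a a peak inside (2.85-fold). Of 14 listed mitochondrial genes, Cpt1a and Ndufs8 (3.59-fold) had a peak inside, while Atp5md, with its gene-end peak, was not on the list. Of 18 listed cell cycle and DNA repair genes, Pola2 had a peak inside (3.77-fold), and so did Smc5 (3.38-fold) and Ccnj (3.23-fold), which were not on the list. Of 63 olfactory receptor genes, whose median length is 0.945 kb, 1 had a gene-end peak and none a peak inside. Among 15 Cyp2c genes 4 had a peak inside, Cyp2c66 (4.67-fold), Cyp2c39, Cyp2c40 and Cyp2c69 (3.95-fold each).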

How the data were processed

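The submitters' processing notes list Bowtie2, ChIPseeker, the build mm10 and version 2.2.6 of MACS2, but the peak file's own header gives version 2.1.4. Peaks of the 1 ChIP library over the 1 input were called at a p-value cutoff of 0.001 with a fragment length of 164 bp, and 1 tag was kept per position, per the file headers. The deposited pileup is a coverage signal in tags, the deposited fold enrichment is a ratio with a pseudocount of 1, and the −log10 p-value and −log10 q-value are the authors' own, used to describe and rank peaks within the list. The header states that q would not be calculated, yet the column holds values and was used as given. Positions and widths are in bp, per the file headers.

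Genes were 1145 RefSeq records of chromosome 19 other than pseudogenes (39334 on all chromosomes used) on GRCm38.p6. Strand and transcript starts came from the RefSeq promoter table, which matched 593 of the 705 coding genes. Peaks were placed by summit, and coding genes entered bins by their midpoint. Shares carry exact Clopper-Pearson and densities exact Poisson 95% intervals. Python 3.11.15, pandas 2.3.3 and scipy 1.17.1 were used, and the placement steps were tested on simulated data. No test was run, because the chromosome was chosen from the same list. Members, lists and named genes (by fold, tags, width, peaks inside and list membership) were chosen with earlier results of these data known. The 28 peaks on contigs or the mitochondrial genome entered only the shares of the whole list by q and fold. Alternatives were stricter peak limits, other gene-end windows, peak overlap in place of summits, coding genes alone and other bins. Some genes of the lists are not reported here.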

Additional observations from a re-analysis of the deposited data

How the results depend on the processing

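Of the alternatives run, those that follow moved a value beyond its counting interval, or a correlation by more than 0.1, or turned its sign. With peaks of q at most 0.05 (172 peaks) the density was 2.96 per Mb, the median fold 4.27 and the share of coding genes with a gene-end peak 2.55%. At q at most 0.01 (52 peaks) these were 0.894 per Mb, 4.67 and 0.993%, the 1 Mb correlation was 0.489, and the 5 bins of 5 Mb with most peaks held 63.5% of peaks, beside 49.1% in the full list. At 4-fold or more (100 peaks) the values were 1.72 per Mb, 4.31 and 1.13%, with 55.0% in the 5 fullest bins. These bins were picked anew for each set of peaks. Fewer peaks lower density and gene counts by construction, and stricter limits raise the median fold. With fewer peaks, counting error alone also raises the share in the fullest bins. Within 500 bp of a gene end there were 6.29% of summits and 2.98% of coding genes, and within 3000 bp 24.0% and 10.2%, which left 42.2% of summits inside genes. With coding genes alone, 44.9% were inside and 46.7% between genes. The correlation was 0.462 without the stretch from 5 to 15 Mb, and, in 5 Mb bins, -0.0334 without the last bin and 0.0799 without the first and last, all added after seeing the data. The cause was not tested. No paired analysis was possible because each group has 1 library. With 7 to 15 tags in nearly every peak, differences of 1 tag limit any ranking.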
